A study of Homo sapiens with 36 samples.

Results

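The CEACAM genes and the epithelial keratins were followed here as 10 genes of the mRNA count table, chosen by symbol from the 60591 genes listed: CEACAM1, CEACAM5, CEACAM6 and CEACAM7, and KRT7, KRT8, KRT18, KRT19, KRT20 and KRT80. Their level was measured by RNA sequencing in 18 libraries of Caco-2 and HT-29, human colorectal adenocarcinoma lines, with 3 replicates in each of 6 groups. Caco-2 cells had been kept under differentiation conditions for 21 days before use, so cell line and culture state cannot be told apart wherever the lines are compared. For 24 h, each line received 300 µM cobalt chloride (CoCl2), 5 µM of an oxyquinoline derivative (OD), or neither agent (control). Both agents are used to imitate hypoxia chemically, by blocking the prolyl hydroxylases, oxygen-dependent enzymes whose activity leads to breakdown of hypoxia-inducible factor (HIF). The labels put 0.5 µl of dimethyl sulfoxide (DMSO) per ml of medium in the control and OD dishes and dissolve CoCl2 in water, whereas the study's methods describe 0.5% DMSO in the CoCl2 and control media as well. An effect of the solvent therefore cannot be told apart from that of CoCl2. The study calls the replicates biological, but the labels do not say whether they were separate cultures, and p-values measure the spread between these libraries only.

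CEACAMs are cell surface glycoproteins of the immunoglobulin superfamily that carry cell adhesion at the apical side of gut epithelium and serve as docking sites for bacteria. CEACAM5 is the carcinoembryonic antigen used as a serum marker of colorectal cancer. CEACAM5, CEACAM6 and CEACAM7 are held in the membrane by a lipid anchor, whereas CEACAM1 spans the membrane and signals through its cytoplasmic tail. Keratins form the intermediate filaments of epithelial cells, in which every filament needs a type II partner (KRT7, KRT8, KRT80) and a type I partner (KRT18, KRT19, KRT20). KRT8 and KRT18 are the standard partners of simple epithelia, and KRT20 marks mature cells of the intestinal lining.

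The 10 genes sit in a few tight neighbourhoods of the genome (GRCh38, GENCODE). CEACAM7 (chr19:41673303-41706976, minus strand) and CEACAM5 (chr19:41708585-41730433, plus strand) point away from each other with 1608 bases between their outer annotated bounds, and CEACAM6 (chr19:41750977-41772211, plus strand) follows after 20543 bases. The RefSeq starts of CEACAM5, CEACAM6 and CEACAM7 used below lie inside these bounds, that of CEACAM7 farther from CEACAM5. CEACAM1 (chr19:42507304-42561234, minus strand) lies a further 735092 bases away, and its RefSeq start also lies inside its bounds. KRT8 (chr12:52897187-52949954, minus strand) and KRT18 (chr12:52948871-52952906, plus strand) overlap in the annotation by 1084 bases on opposite strands. KRT80 (chr12:52168996-52192014, minus strand) and KRT7 (chr12:52232520-52252186, plus strand) stand in the same type II keratin cluster. The type I genes KRT19 (chr17:41523617-41528308, minus strand) and KRT20 (chr17:40875889-40885242, minus strand) are in the cluster on chromosome 17.

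RefSeq (GRCh38.p14) gave a promoter for 6 of the 10 genes, and the 5 printed here are those of the genes that were called with OD in either line. Each line is the 250 bases before the RefSeq start, read 5′ to 3′ on the gene's strand. Capitals mark matches, on either strand, to ACGTG or GCGTG (core letters of the HIF response element), TTTATG (letters bound by the gut factor CDX2) and GGGCGG (the GC box). The windows are chr19:42528482-42528731 for CEACAM1, chr19:41708376-41708625 for CEACAM5, chr19:41755280-41755529 for CEACAM6, chr19:41688271-41688520 for CEACAM7 and chr17:40885243-40885492 for KRT20.
CEACAM1: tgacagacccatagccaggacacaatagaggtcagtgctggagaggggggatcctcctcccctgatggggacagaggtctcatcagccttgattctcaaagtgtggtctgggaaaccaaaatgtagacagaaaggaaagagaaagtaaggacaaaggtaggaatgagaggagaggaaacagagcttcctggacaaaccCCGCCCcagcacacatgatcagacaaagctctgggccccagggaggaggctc
CEACAM5: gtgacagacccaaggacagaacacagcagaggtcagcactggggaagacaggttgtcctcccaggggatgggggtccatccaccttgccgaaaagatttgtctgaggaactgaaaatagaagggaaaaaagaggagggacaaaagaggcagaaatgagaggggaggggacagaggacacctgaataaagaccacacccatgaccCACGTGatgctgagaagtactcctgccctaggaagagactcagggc
CEACAM6: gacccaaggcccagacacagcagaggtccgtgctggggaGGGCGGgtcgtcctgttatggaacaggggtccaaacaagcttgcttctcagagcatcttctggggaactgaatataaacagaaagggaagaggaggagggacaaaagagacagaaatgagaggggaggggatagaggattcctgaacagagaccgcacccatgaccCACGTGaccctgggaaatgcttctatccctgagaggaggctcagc
CEACAM7: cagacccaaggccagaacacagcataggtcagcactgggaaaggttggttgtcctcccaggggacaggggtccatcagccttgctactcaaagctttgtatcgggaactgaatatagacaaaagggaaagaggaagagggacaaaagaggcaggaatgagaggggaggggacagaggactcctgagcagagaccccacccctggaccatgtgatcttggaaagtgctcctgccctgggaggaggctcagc
KRT20: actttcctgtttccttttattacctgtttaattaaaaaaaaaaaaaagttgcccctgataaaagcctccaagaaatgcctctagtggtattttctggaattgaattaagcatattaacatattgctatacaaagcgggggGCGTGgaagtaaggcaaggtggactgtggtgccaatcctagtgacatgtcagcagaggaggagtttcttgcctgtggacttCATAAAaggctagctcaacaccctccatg

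CEACAM5 and CEACAM6 each held ACGTG on both strands, as overlapping matches in the palindrome CACGTG whose leftmost base lay 46 and 45 bases before the start. The same letters are a match to CANNTG, the E-box, and ACGTG was found in 18.5% of all 35116 promoter windows of this length, against 61.8% for CANNTG. CEACAM7 and CEACAM1 held no ACGTG or GCGTG in this window, and each had a CANNTG match, at 44 and 41 bases. KRT20 held GCGTG at 110 bases (32.2% of windows) and TTTATG at 29 bases (9.64%). GGGCGG (42.6%) was found in CEACAM1 at 52 bases and in CEACAM6 at 211. KRT8, whose RefSeq window is not printed, held CANNTG alone. Among the CEACAM windows, CEACAM5 and CEACAM7 were the most alike, with 80.5% identical bases in alignment, then CEACAM6 and CEACAM7 with 79.9% and CEACAM5 and CEACAM6 with 74.6%. CEACAM1 shared from 66.2% to 71.9% with the other CEACAM genes, and KRT20 shared from 44.9% to 48.2% with them.

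Levels are given as CPM, the counts of a gene per 1000000 counts of its library, with library sizes of each line scaled by TMM (trimmed mean of M values). Differences are log2 fold changes with their standard error (SE) from edgeR, with the false discovery rate (FDR) taken over all genes tested. A gene is said to have risen or fallen at an FDR under 0.05, and is called when its absolute log2 fold change was also over 1.

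Libraries held from 12925719 to 22332639 counts, of which these genes took from 0.227% to 0.767%. Of the intestinal epithelial markers, 7 of 8 were above 3 counts in every library of each line, and CDX1 stayed at or below 3 counts in Caco-2. The summed CPM of enterocyte markers was 303 to 383 in control, 196 to 230 in CoCl2 and 259 to 343 in OD libraries of Caco-2, and 15.8 to 16.2, 8.96 to 9.75 and 8.07 to 9.31 in HT-29. The OD libraries overlapped the controls in Caco-2, and APOA4 went against the sum there, from 13.1 CPM in controls to 61.2 with CoCl2. The summed goblet markers were at 36.4 to 46.1 CPM in control, 22.1 to 24.7 in CoCl2 and 26.7 to 29.9 in OD libraries of Caco-2, and at 60.7 to 66.4, 25.4 to 35.1 and 40.6 to 41.6 in HT-29. In Caco-2 this sum was mostly TFF3 (40.7 CPM in controls). MUC2 (0.381 to 0.677 CPM) and SPDEF (0.344 to 0.600) went against it there with OD. The part of these sums in the results below was not tested, nor was that of the markers of other cell types. Of 6 mesenchymal, 4 immune and 3 endothelial markers, 3, 2 and 1 were above 3 counts in every Caco-2 library and 1, 1 and 0 in every HT-29 library. Summed over each list, the group ranges lay between 24.0 and 37.4, 2.54 and 5.63 and 2.16 and 12.5 CPM in Caco-2, and between 2.39 and 6.81, 0.597 and 2.77 and 0.299 and 2.32 CPM in HT-29. COL1A1 (25.1 CPM), PECAM1 (8.84), PDGFRA (8.29) and CD14 (4.64) led them in Caco-2 controls, whereas PTPRC (immune), COL1A2 (mesenchymal) and CDH5 (endothelial) had at most 3 counts in any library. The endothelial sum was lower with CoCl2 in both lines (2.16 to 2.91 against 8.38 to 12.5 CPM in Caco-2 controls, and 0.299 to 0.576 against 1.39 to 2.32 in HT-29). With OD it was also below the controls, at 5.52 to 6.52 CPM in Caco-2 and 1.05 to 1.24 in HT-29. The immune sum was lower with OD in Caco-2 (2.54 to 2.94 against 4.95 to 5.63 CPM) and with CoCl2 in HT-29 (0.597 to 0.823 against 1.59 to 2.07). With CoCl2 in Caco-2 it was at 4.25 to 4.72 CPM, also below the controls. The mesenchymal sum of Caco-2 was 34.6 to 37.4 CPM in controls and lower with CoCl2 (29.5 to 31.9) and OD (24.0 to 29.7). In HT-29 it was higher with OD (5.59 to 6.81 against 2.52 to 3.16). There COL1A1 went from 1.41 to 5.63 CPM, while VIM went from 0.323 to 0.0738 and ACTA2 from 1.03 to 0.507.

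OD raised all 4 CEACAM genes in both lines, where 25.7% of all genes tested rose and 24.7% fell in Caco-2, and 34.7% rose and 34% fell in HT-29. In Caco-2 all 4 were called higher, and in HT-29 the 3 lipid-anchored genes were called and CEACAM1 rose by less. Over the 10 genes, 5 of the 9 tested were called with OD in Caco-2, all of them higher, beside 11.7% of all 16034 genes (4.43% higher and 7.27% lower). In HT-29, 4 of 10 were called, all of them higher, beside 17.1% of 15812 genes (9.5% and 7.57%). The median log2 fold change of the 4 CEACAM genes was 1.62 in Caco-2 (-0.02 over all genes tested) and 2.59 in HT-29 (0.01). KRT20 was the remaining gene called in each line. Bulk libraries cannot tell fewer cells of a type from less RNA per cell, and this holds for every level below.

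CEACAM5 was at 20.3, 18.1 and 21.0 CPM in the Caco-2 controls and at 60.1, 57.0 and 60.9 CPM with OD, a log2 fold change of 1.58 (SE 0.10, FDR = 1.5e-12). In HT-29 its controls were at 9.49, 8.37 and 9.35 CPM and its OD libraries at 82.4, 74.1 and 74.1 CPM, a log2 fold change of 3.08 (SE 0.07, FDR = 1.7e-22). No OD library overlapped a control library in either line, and the HT-29 response exceeded the Caco-2 response by 1.48 on the log2 scale (SE 0.12, FDR = 4.5e-12). Over the 10 genes this line difference was called higher for 3 and lower for 1, beside 15.2% of 17921 genes (8.96% and 6.24%). Its OD level in HT-29 was the highest of its 6 group means.

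CEACAM6, a lipid-anchored receptor for adherent bacteria, rose from 58.2, 57.1 and 66.3 CPM in Caco-2 to 193, 178 and 202 CPM with OD, a log2 fold change of 1.66 (SE 0.08, FDR = 6.9e-14). In HT-29 it rose from 21.8, 21.4 and 20.7 CPM to 117, 106 and 119 CPM, a log2 fold change of 2.42 (SE 0.06, FDR = 4.0e-22). The line difference of 0.75 (SE 0.11, FDR = 5.7e-07) passed the FDR and stayed under the fold limit.

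CEACAM7 is known from the mature surface cells of the colon and was the lowest of the family. Its counts ran from 27 to 99 per library in Caco-2, so its values there are less precise. In Caco-2 it went from 1.57, 2.55 and 2.22 CPM to 6.46, 5.22 and 6.99 CPM with OD, a log2 fold change of 1.56 (SE 0.22, FDR = 2.7e-06). In HT-29 it went from 3.36, 4.16 and 3.72 CPM to 27.0, 24.6 and 25.2 CPM, a log2 fold change of 2.77 (SE 0.10, FDR = 2.1e-18). The HT-29 response was larger by 1.18 (SE 0.24, FDR = 0.00015), and the groups did not overlap in either line.

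CEACAM1, the transmembrane member, had the opposite order of responses. In Caco-2 it rose from 36.9, 37.2 and 34.7 CPM to 203, 176 and 194 CPM with OD, a log2 fold change of 2.40 (SE 0.08, FDR = 1.9e-17). In HT-29 it rose from 135, 138 and 133 CPM to 222, 230 and 222 CPM, a log2 fold change of 0.73 (SE 0.05, FDR = 1.4e-12) that was not called. The difference between the lines was -1.68 (SE 0.09, FDR = 4.1e-16), and the plot of CEACAM levels by library shows both the higher start and the smaller step in HT-29.

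**Figure D1:**
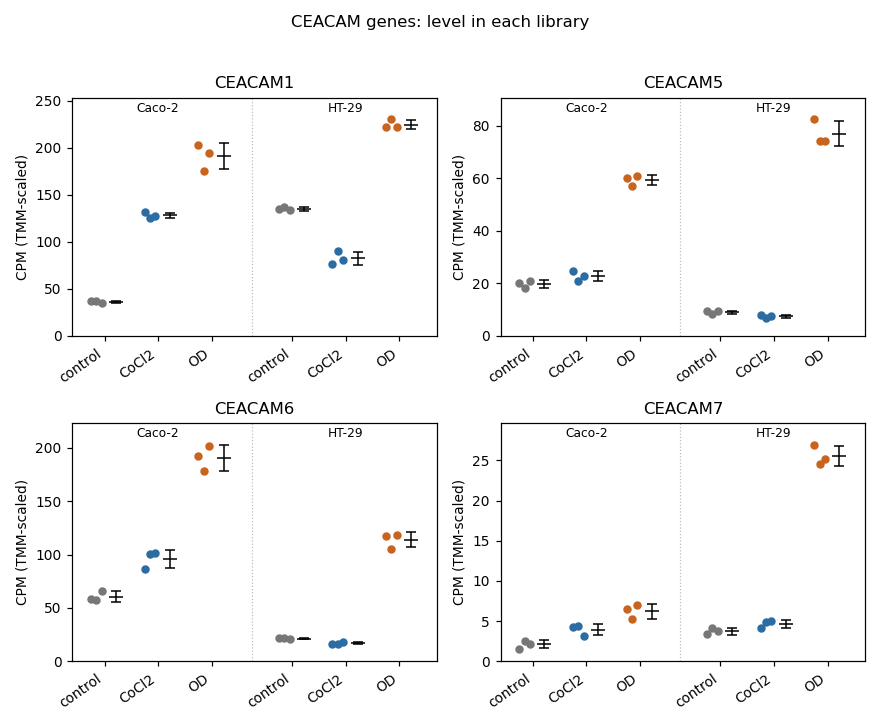
Level of each CEACAM gene in CPM (vertical axis, TMM-scaled within each line) in the 18 libraries, by line and treatment. Points are libraries, and bars are the mean ± SD of 3. The OD libraries lie above the controls in every panel, whereas CoCl2 libraries of CEACAM1 lie above the controls in Caco-2 and below them in HT-29.

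The CEACAM genes answered CoCl2 differently in the lines, and the line difference passed the FDR for all 4, each lower in HT-29. Of all 17921 genes tested, 3787 passed it higher and 5129 lower, and the median line difference over all genes was -0.13. The CEACAM7 difference (-0.69, SE 0.27, FDR = 0.031) did not pass under every alternative, where its FDR reached 0.14. In Caco-2, CEACAM1, CEACAM6 and CEACAM7 rose, and CEACAM1 alone was called. In HT-29, CEACAM1, CEACAM5 and CEACAM6 fell, short of the fold limit. Of all genes tested, 31.6% rose and 33.1% fell with CoCl2 in Caco-2. The shares for HT-29 were 40.7% and 42.2%. Over the 10 genes, 4 of the 9 tested in Caco-2 were called with CoCl2, all of them higher, beside 23.4% of all genes (9.13% higher and 14.2% lower). In HT-29, 2 of 10 were called higher and 2 lower, beside 17.4% and 23.9%, and the called share of 4 of 10 was close to the 41.3% of all genes called. The CEACAM median was 0.78 in Caco-2 and -0.30 in HT-29, against -0.03 over all genes in each line.

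In Caco-2, CEACAM1 reached 131, 126 and 127 CPM with CoCl2, a log2 fold change of 1.82 (SE 0.08, FDR = 9.6e-16). In HT-29 it dropped to 76.8, 90.6 and 80.6 CPM, a log2 fold change of -0.71 (SE 0.05, FDR = 3.7e-12). The difference in response between the lines, -2.64 (SE 0.10, FDR = 2.1e-21), was called. Over the 10 genes this difference was called higher for 1 and lower for 5, beside 21.6% of all genes (7.79% and 13.8%). CEACAM1 therefore had the same direction under OD in both lines and opposite directions under CoCl2.

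In Caco-2, CEACAM6 was at 86.6, 100 and 101 CPM with CoCl2 (log2 fold change 0.67, SE 0.09, FDR = 2.5e-07) and at 16.6, 16.5 and 18.1 CPM with it in HT-29 (log2 fold change -0.32, SE 0.08, FDR = 0.00043). The line difference was called at -1.10 (SE 0.12, FDR = 1.5e-09), but was short of the fold limit with DESeq2 (-0.99). CEACAM5 was at 24.7, 21.1 and 22.8 CPM in Caco-2, where it did not pass (log2 fold change 0.20, 95% interval -0.0032 to 0.41, FDR = 0.078), and turned to -0.12 when library size replaced TMM. It fell in HT-29 to 8.07, 6.91 and 7.57 CPM (log2 fold change -0.27, SE 0.11, FDR = 0.020), but did not pass under every alternative, where its FDR reached 0.12. CEACAM7 rose in Caco-2 to 4.25, 4.43 and 3.14 CPM (log2 fold change 0.89, SE 0.24, FDR = 0.0020), and passed the fold limit at 1.05 without the third CoCl2 library or the second control. In HT-29 it was at 4.11, 4.84 and 5.02 CPM, overlapping its controls (log2 fold change 0.31, 95% interval 0.013 to 0.60, FDR = 0.050), and was -0.32 with library size in place of TMM.

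Set directly against OD, CoCl2 left all 4 CEACAM genes lower in both lines, beside 25.2% of all genes at a lower and 24.4% at a higher level past the FDR in Caco-2. The same shares were 40.6% and 37.1% for HT-29. In HT-29 all 4 were called, from -1.44 (SE 0.05) for CEACAM1 to -3.36 (SE 0.08) for CEACAM5. Caco-2 differences were smaller, with CEACAM5 called at -1.38 (SE 0.09). CEACAM7 there (-0.67, SE 0.20, FDR = 0.0083) did not pass under every alternative, where its FDR reached 0.064. CEACAM6, at -0.99 (SE 0.08), crossed the fold limit without the second CoCl2 library (-1.02), the third CoCl2 library (-1.03) or the second OD library (-1.04). Over the 10 genes, 1 of 9 was called in Caco-2, lower, beside 11.7% of all genes (5.21% higher, 6.44% lower). In HT-29, 1 of 10 was called higher and 6 lower, beside 29.9% (10.8% and 19.2%).

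**Figure D2:**
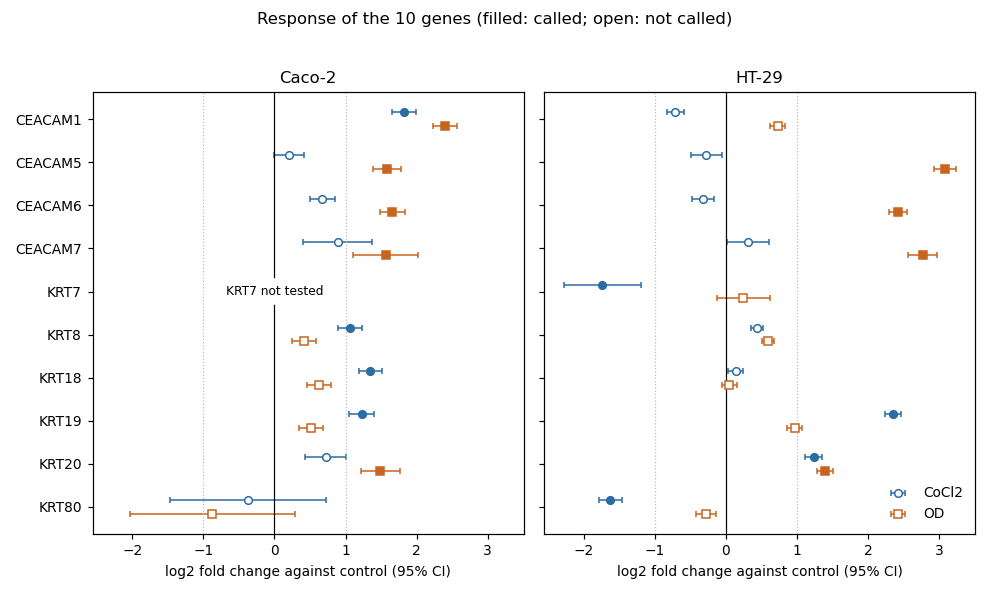
Log2 fold change against control (horizontal axis) of each gene with its 95% interval, for CoCl2 and OD in Caco-2 (left) and HT-29 (right), n = 3 libraries per group. Filled symbols were called, dotted lines mark the fold limit, and the signs of CEACAM5 (CoCl2, Caco-2), CEACAM7 and KRT8 (CoCl2, HT-29) and KRT18 (both agents, HT-29) turned when library size replaced TMM. OD symbols of the CEACAM genes lie right of the CoCl2 symbols in both lines.

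The make-up of the family was compared per transcript length, as RPKM on the annotated exon length of each gene with TMM over all 18 libraries. CEACAM6 was the leading gene in Caco-2 in each condition, and CEACAM1 in HT-29. In the Caco-2 controls CEACAM6 made up 62.4% ± 1.80 (SD, n = 3) of the summed CEACAM RPKM and CEACAM1 20.1% ± 1.78. In the HT-29 controls CEACAM1 made up 69.2% ± 0.305 and CEACAM6 20.4% ± 0.369.

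With OD the share of CEACAM1 was 29.7% ± 0.921 in Caco-2 and 37.6% ± 1.74 in HT-29, where CEACAM6 was at 35.6% ± 1.57 and CEACAM5 at 17.8% ± 0.775. The summed CEACAM level was 32.2 ± 1.80 and 37.0 ± 0.384 RPKM in the controls of Caco-2 and HT-29, and 115 ± 6.92 and 112 ± 3.14 RPKM with OD. With CoCl2 the sums were 61.8 ± 1.69 RPKM in Caco-2 and 23.7 ± 1.19 RPKM in HT-29, on either side of the controls. On the length of the canonical transcript, CEACAM1 took larger shares (25.9% in Caco-2 controls and 75.8% in HT-29 controls), and with CoCl2 in Caco-2 it stood at 44.8% beside 45.2% for CEACAM6.

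**Figure D3:**
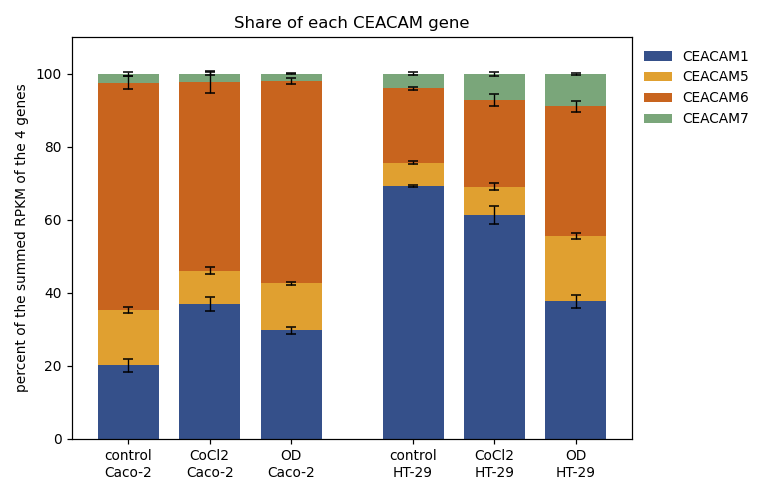
Share of each CEACAM gene in the summed RPKM of the 4 genes (vertical axis, percent), as the mean of 3 libraries per group with the SD of each share at the top of its segment. CEACAM6 is the largest segment in the Caco-2 groups and CEACAM1 in the HT-29 groups, by a small margin with OD (37.6% against 35.6%).

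CEACAM1 had its highest level with OD in HT-29 (42.1 ± 0.845 RPKM), followed by OD in Caco-2 (34.0), the HT-29 control (25.6), CoCl2 in Caco-2 (22.8), CoCl2 in HT-29 (14.5) and the Caco-2 control (6.44), and no neighbours in that order overlapped. For CEACAM5 the order was OD in HT-29 (20.0 RPKM), OD in Caco-2 (14.6), CoCl2 in Caco-2 (5.63), the Caco-2 control (4.89), the HT-29 control (2.38) and CoCl2 in HT-29 (1.83), with an overlap between CoCl2 and control in Caco-2. CEACAM6 followed the same order but for its OD groups, with 63.5 RPKM in Caco-2 and 39.9 in HT-29. CEACAM7 was at 9.98 RPKM with OD in HT-29 and at 2.31 or below elsewhere.

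In Caco-2, KRT8, KRT18 and KRT19 were called higher with CoCl2 and rose by less than the fold limit with OD, and KRT20 had the reverse order. In HT-29 the responses parted: CoCl2 raised KRT19 and KRT20 past the fold limit, left KRT18 within 0.14 of control on the log2 scale, and lowered KRT7 and KRT80. The keratin median with CoCl2 was 1.06 over the 5 genes tested in Caco-2 and 0.29 over the 6 tested in HT-29. With OD it was 0.52 and 0.42.

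KRT8, the type II partner of simple epithelia, stood at 1021, 1098 and 1112 CPM in Caco-2 controls, at 2584, 2055 and 2104 CPM with CoCl2 and at 1429, 1376 and 1504 CPM with OD. Neither treated group overlapped the controls. The log2 fold change was 1.06 with CoCl2 (SE 0.08, FDR = 7.6e-11) and 0.42 with OD (SE 0.08, FDR = 0.00021). The CoCl2 call rested on the fold limit, since the value was 0.95 without the first CoCl2 library and 0.74 with library size in place of TMM. In HT-29, KRT8 went from 2235, 2179 and 2161 CPM to 3015, 2859 and 3057 CPM with CoCl2 (log2 fold change 0.44, SE 0.04, FDR = 2.8e-10, but -0.19 with library size) and to 3415, 3146 and 3321 CPM with OD (log2 fold change 0.59, SE 0.04, FDR = 2.2e-12).

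KRT18, its type I partner, went in Caco-2 from 431, 440 and 466 CPM to 1234, 1037 and 1131 CPM with CoCl2 (log2 fold change 1.35, SE 0.08, FDR = 4.0e-13) and to 726, 626 and 712 CPM with OD (log2 fold change 0.63, SE 0.08, FDR = 5.0e-07). HT-29 libraries began near the level that CoCl2 reached in Caco-2 or above it, with 1396, 1474 and 1533 CPM in controls. They were at 1578, 1539 and 1721 CPM with CoCl2 and at 1570, 1393 and 1577 CPM with OD. The CoCl2 value of 0.14 (SE 0.05, FDR = 0.017) was -0.50 with library size in place of TMM, and the OD value of 0.044 (95% interval -0.061 to 0.15, FDR = 0.45) was -0.092. The line difference in the CoCl2 response was called at -1.32 (SE 0.10, FDR = 5.7e-13).

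KRT19, a type I keratin that lacks most of the usual tail domain, had the largest response to CoCl2 in HT-29 among the 6 keratins. Controls of HT-29 were at 335, 331 and 299 CPM, CoCl2 libraries at 1680, 1543 and 1693 CPM and OD libraries at 665, 586 and 633 CPM. The log2 fold change was 2.35 with CoCl2 (SE 0.05, FDR = 1.4e-23) and 0.97 with OD (SE 0.05, FDR = 7.2e-15), the latter passing the fold limit at 1.02 without the second OD library.

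Caco-2 libraries of KRT19 went from 448, 467 and 468 CPM to 1251, 997 and 987 CPM with CoCl2 (log2 fold change 1.23, SE 0.08, FDR = 5.5e-12) and to 635, 646 and 694 CPM with OD (log2 fold change 0.52, SE 0.08, FDR = 1.6e-05). The Caco-2 CoCl2 value was 0.91, short of the fold limit, when library size replaced TMM. The line difference under CoCl2 was 1.02 (SE 0.10, FDR = 5.1e-10), at the fold limit, and was short of it, from 0.95 to 1.00, without the second or the third Caco-2 CoCl2, the first Caco-2 OD, the first or the third HT-29 CoCl2 or the third HT-29 control library.

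KRT20 separated the lines and rose with both agents in both. Caco-2 controls held 5.06, 5.84 and 5.68 CPM, CoCl2 libraries 9.58, 8.65 and 9.03 CPM and OD libraries 15.2, 15.1 and 16.2 CPM. The log2 fold change was 0.72 with CoCl2 (SE 0.14, FDR = 0.00011) and 1.49 with OD (SE 0.14, FDR = 2.4e-09), and the OD and CoCl2 groups did not overlap.

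In HT-29, KRT20 controls were at 313, 316 and 334 CPM, CoCl2 libraries at 755, 744 and 768 CPM and OD libraries at 946, 774 and 806 CPM. Here the log2 fold change was 1.23 with CoCl2 (SE 0.06, FDR = 3.4e-17) and 1.39 with OD (SE 0.06, FDR = 1.3e-17). The CoCl2 value was 0.60 with library size. The KRT20 response to OD differed between the lines by -0.12 (95% interval -0.38 to 0.15, FDR = 0.50). KRT8, KRT19 and KRT20 were the members that rose in each of the 4 treatment comparisons, but KRT8 in HT-29 with CoCl2 turned when library size replaced TMM. Of all genes tested, from 25.7% (OD, Caco-2) to 40.7% (CoCl2, HT-29) rose in a single comparison. The share that rose in all 4 was not counted.

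KRT7 and KRT80 were read in HT-29, since Caco-2 held from 0 to 14 counts of KRT7 and from 2 to 19 of KRT80 per library. KRT7, a type II keratin of ductal epithelia, stood at 1.94, 2.30 and 2.06 CPM in HT-29 controls, at 0.672, 0.553 and 0.658 CPM with CoCl2 and at 2.54, 2.50 and 2.45 CPM with OD. It fell with CoCl2 by 1.74 on the log2 scale (SE 0.27, FDR = 1.2e-06), from 30 to 55 counts down to 8 or 9. With OD the log2 fold change was 0.25 (95% interval -0.12 to 0.62, FDR = 0.23). KRT80, an epithelial type II keratin, was at 107, 131 and 143 CPM in controls, at 40.9, 42.5 and 40.8 CPM with CoCl2 and at 110, 99.6 and 105 CPM with OD. Its log2 fold change was -1.62 with CoCl2 (SE 0.08, FDR = 6.4e-17) and -0.28 with OD (SE 0.07, FDR = 0.00066).

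**Figure D4:**
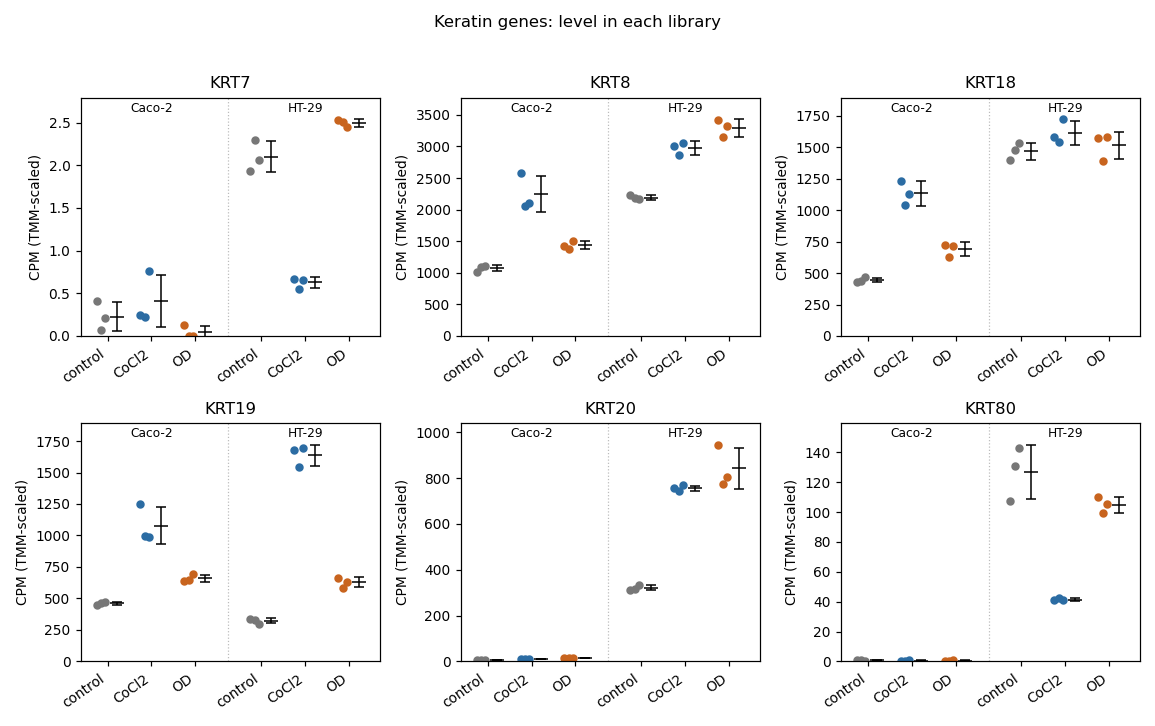
Level of each keratin gene in CPM (vertical axis, TMM-scaled within each line, with its own scale per panel) in the 18 libraries. Points are libraries, and bars are the mean ± SD of 3. KRT19 is highest with CoCl2 in both lines, KRT20 and KRT80 are near the baseline in Caco-2 on these scales, and KRT7 and KRT80 drop with CoCl2 in HT-29.

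Between CoCl2 and OD in HT-29, KRT7, KRT19 and KRT80 were the keratins of the 6 that were called. KRT19 was 1.38 higher with CoCl2 (SE 0.05, FDR = 1.4e-18), and KRT80 was lower (log2 fold change -1.34, SE 0.08, FDR = 9.1e-15). KRT19 was short of the fold limit, at 0.89, with library size in place of TMM. KRT7 was also lower with CoCl2, at -1.98 (SE 0.26) on 8 to 49 counts. In Caco-2, KRT8, KRT18 and KRT19 were higher with CoCl2 than with OD by 0.65, 0.72 and 0.71 (SE 0.08 each), and KRT20 was lower (log2 fold change -0.77, SE 0.13). KRT8 and KRT20 in HT-29 differed by -0.15 and -0.16 between the agents, and KRT18 by 0.091 (95% interval -0.014 to 0.20, FDR = 0.11), which was -0.40 with library size and -0.0021 in a fit over both lines.

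Before treatment the lines already held different keratins. In untreated HT-29 against untreated Caco-2, 6 of the 10 genes were called higher and 2 lower, beside 45.8% of 17921 genes (21.6% and 24.2%) in a fit over both lines. KRT80 was higher in HT-29 by 7.44 (SE 0.17), KRT20 by 5.95 (SE 0.09), KRT7 by 3.21 (SE 0.42), CEACAM1 by 1.99 (SE 0.07), KRT18 by 1.81 (SE 0.07) and KRT8 by 1.11 (SE 0.07), all on the log2 scale. CEACAM6 was lower at -1.42 (SE 0.08) and CEACAM5 at -1.04 (SE 0.10), the latter short of the fold limit without the third Caco-2 control (-0.99) or the second HT-29 control (-0.98), and with the replicate number as a block (-0.99). CEACAM7 at 0.93 (SE 0.19) passed the limit without the second Caco-2 control (1.09) or the first HT-29 control (1.01). KRT19 differed by -0.43 (SE 0.07). All 10 passed the FDR, as did 79.1% of all genes, and the largest FDR among them was that of CEACAM7, at 5.5e-05.

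In RPKM, KRT20 was at 2.84 ± 0.209 in Caco-2 controls and 175 ± 7.81 in HT-29 controls, and KRT80 at 0.172 ± 0.0550 and 30.5 ± 4.60. KRT18 was at 143 ± 6.06 and 500 ± 27.9 RPKM and KRT8 at 154 ± 7.09 and 333 ± 3.14 RPKM. KRT19, the leading keratin of untreated Caco-2 with 39.3% ± 0.467 of the summed RPKM of the 6 genes, held 12.2% ± 0.925 in untreated HT-29, where KRT18 led with 42.2% ± 1.27 and KRT20 held 14.8% ± 0.336. With CoCl2 the HT-29 share of KRT19 was 34.0% ± 0.618 and that of KRT18 25.4% ± 0.713. These shares depend on the length used, as KRT8 has 6881 exon bases in the annotation and 1784 in its canonical transcript. On the canonical length KRT8 was the highest of the 6 in each group, at 593 RPKM in Caco-2 controls and 1284 in HT-29 controls.

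Across the 6 groups, KRT18 was at 510 or 511 RPKM in both treated HT-29 groups, overlapping each other and the control, and its Caco-2 groups stood below, at 363 with CoCl2, 221 with OD and 143 in controls. KRT8 was highest with OD in HT-29 (496 RPKM), and its HT-29 control overlapped CoCl2 in Caco-2 (321). KRT19 with OD was at 278 RPKM in HT-29 and at 277 in Caco-2, which overlapped. The KRT20 groups did not overlap at any step from 456 RPKM down to 2.84.

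The balance of the filament partners was read as ratios within each library, which do not depend on library scaling, from the deposited RPKM values. The level of each ratio does depend on the gene lengths used. On canonical transcript lengths KRT8 exceeded KRT18 in the controls of both lines. The values were 593 against 310 RPKM in Caco-2 and 1284 against 1086 RPKM in HT-29. The log2 change of KRT8 to KRT18 between groups does not depend on length. KRT8 to KRT18 stood at 1.06, 1.11 and 1.06 in Caco-2 controls, at 0.934, 0.884 and 0.830 with CoCl2 and at 0.877, 0.980 and 0.942 with OD. In HT-29 the treated libraries were the higher ones, from 0.714, 0.659 and 0.629 in controls to 0.852, 0.829 and 0.792 with CoCl2 and 0.970, 1.01 and 0.939 with OD. The log2 change in Caco-2 was -0.29 for CoCl2 and -0.21 for OD, while HT-29 had 0.31 and 0.54, with a pooled SD of at most 0.0753. Treated and control libraries did not overlap in any of these 4 comparisons (two-sided exact permutation p = 0.10 each, the smallest that 3 against 3 can give, and 0.13 adjusted over 12 ratio tests).

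The summed type II to type I ratio (KRT8 and KRT80 to KRT18, KRT19 and KRT20, KRT7 not being in the deposited RPKM table) was 0.453 ± 0.00908 in Caco-2 controls, 0.390 ± 0.00726 with CoCl2 and 0.406 ± 0.00371 with OD. Those of HT-29 were 0.444 ± 0.0133, 0.273 ± 0.00325 and 0.419 ± 0.0143. These levels also depend on length. On canonical lengths KRT8 alone held 48.1% of the summed keratin RPKM in Caco-2 controls and 45.3% in HT-29 controls. The CoCl2 change in HT-29, -0.70 on the log2 scale, was the largest of the 4 and was -0.51 on canonical transcript lengths (exact permutation p = 0.10, adjusted 0.13). The OD groups of HT-29 overlapped the controls (-0.084, exact p = 0.20), and the sign turned to 0.11 on canonical lengths.

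The ratio of CEACAM6 to CEACAM5 was 4.12 ± 0.225 in Caco-2 controls, 5.71 ± 0.889 with CoCl2 and 4.33 ± 0.132 with OD. For HT-29 it was 3.18 ± 0.245, 3.07 ± 0.261 and 2.00 ± 0.138. Treated libraries did not overlap controls with CoCl2 in Caco-2 (log2 change 0.46) and with OD in HT-29 (-0.67), each with an exact permutation p of 0.10 (adjusted 0.13). CEACAM6 exceeded CEACAM5 in every library, the lowest ratio being 1.92.

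**Figure D5:**
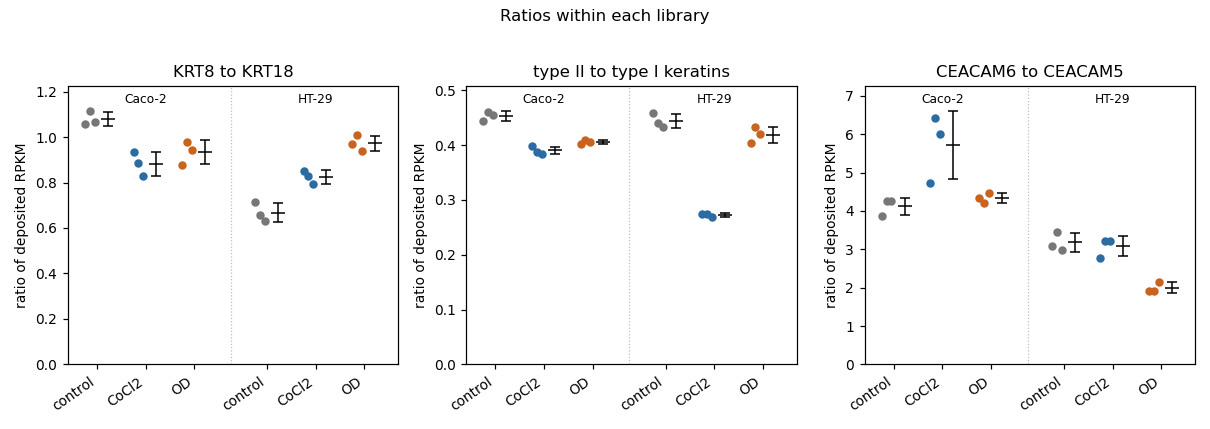
Ratio of deposited RPKM values (vertical axis) within each of the 18 libraries for KRT8 to KRT18, summed type II to type I keratins, and CEACAM6 to CEACAM5. Points are libraries, and bars are the mean ± SD of 3. KRT8 to KRT18 is lower in treated than in control libraries of Caco-2 and higher in those of HT-29, and the type II to type I ratio is lowest with CoCl2 in HT-29 (0.273). The levels of the ratios depend on the gene lengths used.

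The genes most alike in pattern were taken as the 2 with the highest Pearson r in log2 CPM, centred on each line, over the 18 libraries, which share treatments and depth. CEACAM5 and CEACAM6 were each other's closest gene among all genes tested in both lines (r = 0.983), and NOL4L was the next for both. CEACAM7 was nearest to ECE1 (r = 0.965), an endothelin-converting enzyme, and then to CEACAM6 (r = 0.962). CEACAM1 stood apart from its family, with SYBU (r = 0.970) and CNNM4 (r = 0.967) nearest. For the keratins, KRT19 was nearest to EEF2, a translation elongation factor (r = 0.992), KRT20 to COPG1 (r = 0.983), KRT8 to GPX2, a glutathione peroxidase of gut epithelium (r = 0.969), and KRT18 to WDR54 (r = 0.954). KRT8 and KRT18 had r = 0.881 with each other. KRT80 was nearest to FBP2 at r = 0.899, on low counts.

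Other genes of the same families were mostly too low to test. Of 8 other CEACAM genes, CEACAM18 and CEACAM19 were tested in each line. In HT-29, CEACAM18 was called lower with both agents (log2 fold changes of -1.72 for CoCl2 and -1.68 for OD), and CEACAM19 was called higher with OD (1.00), all under 10 CPM. Of 26 other type I and 23 other type II keratins, the filter kept 4 and 2 for Caco-2 and 8 and 1 for HT-29. With CoCl2 in HT-29, 3 of the 8 type I genes were called higher and 2 lower, beside 17.4% and 23.9% of all genes. KRT12 rose there from 0.250 ± 0.0801 to 5.95 ± 0.956 CPM (log2 fold change 4.55) and KRT16, a keratin of stressed skin, from 0.102 ± 0.0972 to 2.07 ± 0.394 CPM (4.29), while KRT40 fell by 3.31 and KRT23 by 2.76 on the log2 scale. With OD in HT-29, 4 of these 8 type I genes were called higher and 2 lower, beside 9.5% and 7.57% of all genes. Among them, KRT16 (2.98), KRT12 (2.42), KRT40 (-2.60) and KRT23 (-2.01) were called in the same directions as with CoCl2. KRT15 was called higher with both agents in HT-29 (4.63 CPM in controls, 11.2 for CoCl2 and 13.3 for OD) and with OD in Caco-2 (from 7.19 to 15.0 CPM). In Caco-2, KRT4 fell by 4.69 on the log2 scale with CoCl2 and by 1.45 with OD, from 3.72 CPM. KRT6C, at 0.292 ± 0.255 CPM in the Caco-2 controls, was called higher with CoCl2 (2.34, SE 0.55) and lower with OD, where it was at 0 in all libraries. KRT12 and KRT16 in HT-29 and KRT6C in Caco-2 were low in controls and passed the filter through treated libraries. KRT40 in HT-29 passed it through its controls. Their calls, and the type I counts above that hold them, carry this selection and are no support for a response of the family.

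Desmosomes and plakins, which tie keratin filaments to cell junctions, were measured as 13 genes. With OD in Caco-2, 4 of the 10 tested were called higher and 1 lower, beside 4.43% and 7.27% of all genes, among them DSC2 (log2 fold change 1.37, SE 0.08) and DSP, the main linker of keratin to the desmosome (1.34, SE 0.08, from 654 ± 10.6 to 1652 ± 155 CPM). With CoCl2 in Caco-2, DSG2 was the gene called (1.01, at the fold limit), 1 of 10 beside 23.4% of all genes. The median log2 fold change of the 10 was 0.63 there, against -0.03 over all genes. CoCl2 in HT-29 had 2 of 12 called in each direction, beside 17.4% of all genes higher and 23.9% lower, no larger a share than among all genes. These were PKP3 (1.67, SE 0.05) and JUP (1.16, SE 0.05) higher and PKP1 (-2.46, SE 0.38) and PKP2 (-1.64, SE 0.06) lower. With OD in HT-29 the log2 fold changes of the 12 ran from -0.85 to 0.78.

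Of 9 transcription factors known to act on these genes in gut, 8 were tested in each line. ELF3, an epithelial ETS factor, was called higher with CoCl2 in both lines, in Caco-2 (from 94.5 ± 4.89 to 377 ± 44.4 CPM, log2 fold change 2.00, SE 0.08) and in HT-29 (from 134 ± 6.61 to 479 ± 17.2 CPM, 1.83, SE 0.05). With OD, ELF3 (1.02) and KLF4 (1.71, SE 0.10) were called in Caco-2, and the 8 values of HT-29 ran from -0.70 to 0.69. CDX2, the intestinal homeobox factor, was called lower with CoCl2 in HT-29 (from 12.8 ± 1.52 to 4.63 ± 0.255 CPM, -1.46, SE 0.14), as was CDX1 (-2.43, SE 0.37).

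Some reads of these genes could also have come from near-identical copies or from genes annotated over the same bases. Windows of 75 bases, the read length, were shared with other genes for 5.05% of KRT7, 4.47% of KRT8, 2.78% of CEACAM6, 2.65% of KRT18, 2.20% of CEACAM5 and 1.42% of CEACAM1, and for 0% of CEACAM7, KRT19, KRT20 and KRT80. The KRT7 windows were shared with its antisense gene KRT7-AS alone, and those of CEACAM1 in part with the overlapping antisense gene LIPE-AS1. CEACAM5 and CEACAM6 shared most with an unnamed protein-coding gene that overlaps both on their strand. The 51 KRT8 pseudogenes together held 1.00% to 2.10% of the KRT8 count, and the 67 of KRT18 held 0.464% to 1.32%. The library kit keeps strand, but whether counting used it was not given in the sources used here, so reads of the stretch that KRT8 and KRT18 share, or of KRT7 and its antisense gene KRT7-AS, may not have been told apart.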

How the data were processed

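The 18 mRNA libraries were grouped by the cell line and treatment in their labels, and every per-sample column was mapped. Per the labels and the study's methods, single-end reads of 75 bases from a stranded kit were trimmed with cutadapt 2.10 and aligned with STAR 2.7.5b to GRCh38.p13, and the authors deposited a table of raw counts for each gene, made on a GENCODE annotation. Whether counting used strand was not given in the sources used here. The authors also deposited a table of log2 values, which from its own values is log2 of RPKM plus 1 with TMM scaling within each line. It was the source of the ratios and of an alternative. The miRNA tables were not used.

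Counts were tested with edgeR 4.0.16 (quasi-likelihood F test, TMM, filterByExpr, R 4.3.3), with a coefficient per group over the 9 libraries of a line, or over all 18 for line comparisons. The FDR is the Benjamini-Hochberg adjustment over all genes tested, and a call needed an FDR under 0.05 and an absolute log2 fold change over 1, the limits of the study, which used DESeq2. The filter kept 9 of the 10 genes in Caco-2, all but KRT7, and 10 in HT-29. Line differences are HT-29 treated minus control less the same in Caco-2. Ratios were compared by two-sided exact permutation tests. Depth limits precision through counting error, and the floor of a library was 3 counts. RPKM used exon lengths of GENCODE release 44. The genes likest a member were the 2 of highest Pearson r among 13942 genes, and from the other lists called genes with the 2 highest and 2 lowest log2 fold changes per comparison could be named. The fits were tested on simulated data with known changes. Members and lists were chosen with earlier results of these data known. Alternatives were library size in place of TMM, DESeq2 1.42.0, no filter, no fold limit, pseudogene counts added to parents, limma 3.58.1 on the deposited values with a pseudocount of 1 or 0.1, a replicate block, and each library left out. Same-numbered replicates did not deviate together (r from -0.0554 to 0.0676 over 18 pairs). Replicates differed by more than counting error (chi-square divided by its degrees of freedom, 1.96 to 12.6), so none was counted as a duplicate.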

Additional observations from a re-analysis of the deposited data

Results flagged for a closer look

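The difference in response between HT-29 and Caco-2 was itself called, in the fit over 18 libraries, for 10 results of 8 genes. For CoCl2, 6 of 10 genes were called, beside 7.79% of 17921 genes called higher and 13.8% lower, and for OD 4 of 10, beside 8.96% and 6.24%. The log2 difference under CoCl2 was -2.64 for CEACAM1, -1.10 for CEACAM6, -2.74 for KRT7, -1.32 for KRT18, 1.02 for KRT19 and -1.39 for KRT80. Under OD it was -1.68 for CEACAM1, 1.48 for CEACAM5, 1.18 for CEACAM7 and 2.47 for KRT7.

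CEACAM1 and CEACAM6 rose with CoCl2 in Caco-2 and fell in HT-29. The response of CEACAM1, not its level, was called lower in HT-29 than in Caco-2 under both agents. The 3 lipid-anchored CEACAM genes had the larger OD response in HT-29 (CEACAM6 at 0.75, under the fold limit).

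For KRT7 and KRT80 the differences rest on Caco-2 libraries with few counts. KRT7 in Caco-2 was at 7, 1 and 3 counts in controls, 3, 3 and 14 with CoCl2 and 2, 0 and 0 with OD, and the fitted value under OD depends on how the zeros are handled. The KRT7 call under CoCl2 was lost without the third Caco-2 CoCl2 library (-1.83), and its call under OD was lost with DESeq2 (2.67), with no filter (2.46), without the first (1.71) or the third (2.54) Caco-2 control, the second (1.89) or the third (2.00) Caco-2 OD library, the first (2.41) or the third (2.45) HT-29 control, or any of the HT-29 OD libraries (2.45 to 2.48). KRT80 in Caco-2 was at 15, 14 and 7 counts in controls and 5, 3 and 19 with CoCl2, and its difference was -0.44 without the third CoCl2 library and -1.16 without the third control, not passing in either case.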

How the results depend on the processing

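Of 1647 values of the 10 genes under alternatives, 1600 kept their direction and their side of the FDR threshold, 33 no longer passed it, 6 newly passed and 8 turned. With library size replacing TMM, all genes had a median log2 fold change of -0.35 (CoCl2) and -0.18 (OD) in Caco-2, and of -0.66 and -0.13 in HT-29, where TMM gave -0.03, -0.02, -0.03 and 0.01, so changes above are relative to TMM. The signs that turned were CEACAM5 with CoCl2 in Caco-2 (-0.12), CEACAM7 (-0.32), KRT8 (-0.19) and KRT18 (-0.50) with CoCl2 in HT-29, KRT18 with OD in HT-29 (-0.092), and KRT18 between CoCl2 and OD in HT-29 (-0.40, and -0.0021 in a fit over 18 libraries). Calls of all genes then split 870 higher to 3546 lower for CoCl2 in Caco-2 (1464 to 2283 with TMM), 500 to 1644 for OD (711 to 1165), 602 to 1524 between them (835 to 1033), 1295 to 6250 for CoCl2 in HT-29 (2749 to 3775), 1225 to 1596 for OD (1502 to 1197), 783 to 5279 between them (1702 to 3032), and 1005 to 3319 for the line difference under CoCl2 (1396 to 2479).

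Members called numbered 2 with library size for CoCl2 in Caco-2 (4 with TMM) and 2 for CoCl2 against OD there (1 with TMM), where no filter gave 3, the fit over 18 libraries 2 and leaving out a library from 1 to 2. CEACAM1 was called with CoCl2 in HT-29 at -1.34 with library size, and the CEACAM6 line difference under CoCl2 was -0.99 with DESeq2. Line differences under CoCl2 numbered from 3 to 6 with a library left out, 3 without the third Caco-2 CoCl2 library. With no fold limit the members passing were 7 (CoCl2), 8 (OD) and 8 (CoCl2 against OD) in Caco-2, 9 and 8 for CoCl2 and OD in HT-29, and 10 and 7 for the line differences. All genes called were then 10370, 8084 and 7957 in Caco-2 in the same order (3747, 1876 and 1868 with it), 13097, 10876 and 12286 in HT-29 (6524, 2699 and 4734), 8916 and 7682 for the line differences (3875 and 2724) and 14175 between untreated lines (8202). Limma on the deposited values, with fewer genes listed, called 1098, 381 and 341 in Caco-2 with a pseudocount of 1 (2520, 744 and 1455 in HT-29), and 2116, 878, 848, 3893, 1295 and 2599 with 0.1. CEACAM7 with OD in Caco-2 was short of the fold limit with the pseudocount of 1 (0.88) and past it with 0.1 (1.43).

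KRT80 between CoCl2 and OD in Caco-2 ran from -0.41 to 1.03 with a library left out, and the CEACAM6 to CEACAM5 change with CoCl2 in HT-29 from -0.092 to 0.023. On canonical transcript lengths, chosen after seeing the data, the type II to type I change in HT-29 was -0.51 with CoCl2 and 0.11 with OD. The replicate block changed 1 call of 87, CEACAM5 between untreated lines at -0.99, and the side of the FDR of 0, and in 4 of 18 pairings of same-numbered libraries the correlation was highest with the own number, so the numbers were not taken as pairs. Counts under 20 per library limit KRT7 and KRT80 in Caco-2.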
